A study of Mus musculus with 26 samples.

Results

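The Gimap genes encode the GTPases of the immunity associated proteins, a family of small GTP binding proteins whose genes lie side by side in mammalian genomes. The 8 members listed on mouse chromosome 6, Gimap1, Gimap3, Gimap4, Gimap5, Gimap6, Gimap7, Gimap8 and Gimap9, were followed here across bone marrow monocytes, small peritoneal macrophages (SPMs) and MHCII negative lung macrophages of WT and ACKR2-/- mice. They were taken by gene name from the monocyte and SPM count tables, which list 54375 and 54863 genes, and by the same identifiers from the lung table, which lists 57186. The members were chosen by measured values of these data, since several had higher read counts in ACKR2-/- than in WT monocytes, so all monocyte values by genotype, and the counts of genes called there, are given as a description that supports nothing, with no p-value. In that contrast, 6 members were 8.6 to 24.8 times higher in ACKR2-/- monocytes, whereas Gimap9 differed by 1.26 times. In the SPM and lung contrasts, which did not enter the choice, 0 of 8 members were called.

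Gimap proteins are best known from lymphocytes, where they bind guanine nucleotides at the membranes of lysosomes, mitochondria and other organelles and act in the survival of resting cells. Loss of Gimap5 causes lymphopenia in rodents, and Gimap1 is needed for mature T and B cells to persist. Gimap4 has been linked to T cell death, Gimap3 and Gimap5 to Bcl2 family proteins, and Gimap6 to autophagy through the GABARAP proteins. Gimap7 hydrolyses GTP when it forms dimers, Gimap8 is the largest member, with several GTPase domains, and less is known of Gimap9.

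ACKR2 is an atypical receptor that binds and removes inflammatory CC chemokines without signalling as a classical receptor does. The samples came from naive female mice, either bought C57BL/6J mice (WT) or whole-body ACKR2-/- mice bred as a colony of their own, so genotype and colony cannot be told apart, and mice of the study were in general 8 to 10 weeks old, although the age of those sorted for sequencing was not stated. There were 4 WT and 4 ACKR2-/- samples of monocytes, the same of SPMs, and 5 WT and 5 ACKR2-/- samples of lung macrophages. Each monocyte or SPM sample held the pooled cells of 5 mice, whereas for lung samples no such number was found in the sources. The monocyte gate kept CD11b+ Ly6C+ cells after Ly6G+, SiglecF+ and F4/80+ cells, among others, were left out, and no T cell marker is named in it. The values are counts of sequenced reads per gene, given here also as CPM, the count divided by the library's TMM-scaled total (a total corrected for differences in composition) and scaled to the usual unit, within each cell type's own table.

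The reads counted on genes numbered 15450670 to 19218213 per monocyte sample, 12781144 to 35400034 per SPM sample and 19950019 to 29770252 per lung sample. Ackr2 itself had 0 to 2 reads in every monocyte sample of either genotype, which cannot check those labels. It had 5 to 9 reads in WT and 0 in ACKR2-/- SPMs. In the lung it had 150 to 469 reads in 4 WT samples and 7 to 50 in ACKR2-/- samples, but 0 in the library labelled WT replicate 5, and the members' lung differences are therefore also given without that library. All 8 monocyte marker genes were tested in monocytes and all 8 macrophage marker genes in SPMs and lung. The MHCII genes, which the lung sort selected against, summed to 3740 to 9370 CPM in 9 lung libraries and to 96600 in WT replicate 3. In bulk samples, fewer cells of a type and less RNA per cell cannot be told apart.

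The 8 genes span 123618 bases, chr6:48647234-48770851 of GRCm38, and the positions of all 8 in the count tables equal those of GENCODE M21. In order along the chromosome they are Gimap8 (chr6:48647234-48660875), Gimap9 (chr6:48676129-48679114), Gimap4 (chr6:48684549-48692060), Gimap6 (chr6:48701582-48708225), Gimap7 (chr6:48718621-48724636), Gimap1 (chr6:48739054-48743795), Gimap5 (chr6:48746197-48754210) and Gimap3 (chr6:48764464-48770851). All are protein coding, and Gimap6 and Gimap3 lie on the reverse strand. Gimap1 overlaps Gimap1os, an RNA of the opposite strand. In the annotated transcripts, 31.4% of the different 100-base stretches of Gimap1 also occur in another gene, 28.3% of them in Gimap1os on the opposite strand. The library kit does not mark strand, so reads of these genes cannot be told apart. Gimap5 and Gimap3 share 0.966% and 1.65% of such stretches with each other, and Gimap4, Gimap6, Gimap7, Gimap8 and Gimap9 share 0% with any other gene. Gm28053, a transcript model that runs from Gimap7 to Gimap5, overlaps 3 members on the same strand, and the sources used here do not say how reads on overlapping genes were assigned.

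The 250 bases before the RefSeq start of Gimap4, Gimap7 and Gimap3, the tested members with the largest fold changes in monocytes, are shown with those of Gimap9, the member that was not called there. They are from RefSeq on GRCm38.p6, in which 8 of 8 members were found, and are written 5' to 3' on the gene's own strand. Capitals mark matches on either strand to any of 6 short motifs known from lymphoid and general promoters (ETS, RUNX, E-box, TCF, GATA and GC-box, spelled out after the sequences), and 0 bases of the members fell in 2 matches.
Gimap4, chr6:48684328-48684577, forward strand: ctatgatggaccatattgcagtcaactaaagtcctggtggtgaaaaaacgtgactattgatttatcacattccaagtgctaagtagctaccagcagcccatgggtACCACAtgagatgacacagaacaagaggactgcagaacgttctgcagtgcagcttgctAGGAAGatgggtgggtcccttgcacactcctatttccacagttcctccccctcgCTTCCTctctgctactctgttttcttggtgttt
Gimap7, chr6:48718371-48718620, forward strand: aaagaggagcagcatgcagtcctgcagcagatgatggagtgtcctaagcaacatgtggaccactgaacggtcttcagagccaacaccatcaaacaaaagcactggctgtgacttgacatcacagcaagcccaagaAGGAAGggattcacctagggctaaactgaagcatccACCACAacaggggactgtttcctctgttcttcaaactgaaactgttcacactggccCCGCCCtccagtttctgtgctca
Gimap3, chr6:48770852-48771101, reverse strand: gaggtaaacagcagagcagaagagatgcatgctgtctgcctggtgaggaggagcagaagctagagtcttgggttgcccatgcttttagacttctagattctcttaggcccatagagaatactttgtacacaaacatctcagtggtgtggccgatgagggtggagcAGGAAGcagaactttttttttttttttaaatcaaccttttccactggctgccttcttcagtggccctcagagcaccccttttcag
Gimap9, chr6:48675885-48676134, forward strand: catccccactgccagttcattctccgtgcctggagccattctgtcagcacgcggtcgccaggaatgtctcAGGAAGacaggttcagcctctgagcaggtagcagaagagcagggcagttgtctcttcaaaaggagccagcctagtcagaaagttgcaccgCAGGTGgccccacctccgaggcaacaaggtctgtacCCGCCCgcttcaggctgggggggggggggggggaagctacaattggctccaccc

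The ETS motif, searched as AGGAAG, was found before 7 of the members' 9 RefSeq starts, against 29.5% of the 32851 starts searched in the same way. This spelling was absent before Gimap6 and before 1 of the 2 starts of Gimap8, and other spellings of the motif were not searched. The RUNX motif, TGTGGT, was found before Gimap1, Gimap4 and Gimap7, against 14% of all starts. The GC-box, GGGCGG, was found before Gimap7 and Gimap9, against 32.7%. The E-box, CAGGTG, was found before Gimap9, against 17.2% of all starts. The TCF motif, CTTTGA, was found before 0 members, against 13.8%. The GATA motif, AGATAA, was also found before 0 members, against 9.99%. Gimap9 stood apart in base composition. Its 250 bases had 61.2% GC and 8 CpG, whereas those of the other members had 43.6% to 55.6% GC and 1 to 3 CpG, and the median of all starts was 52.4% GC and 6 CpG. These matches are descriptions of the sequence, and binding was not measured.

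In monocytes, 6 of the 7 members that passed the filter on low counts were called higher in ACKR2-/- samples, a call being a gene with a Benjamini-Hochberg adjusted p below 0.05 that differed by more than 0.5 on the log2 scale. Of all 13246 genes tested, 0.913% were called higher, and since this contrast chose the members nothing is read from their count. The median log2 fold change of the 7 members was 3.94, beside 0 over all tested genes. Along the chromosome the called members run from Gimap4 to Gimap3 without a gap among the members, and Gimap9 and Gimap8 lie on one side of them.

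**Figure D1:**
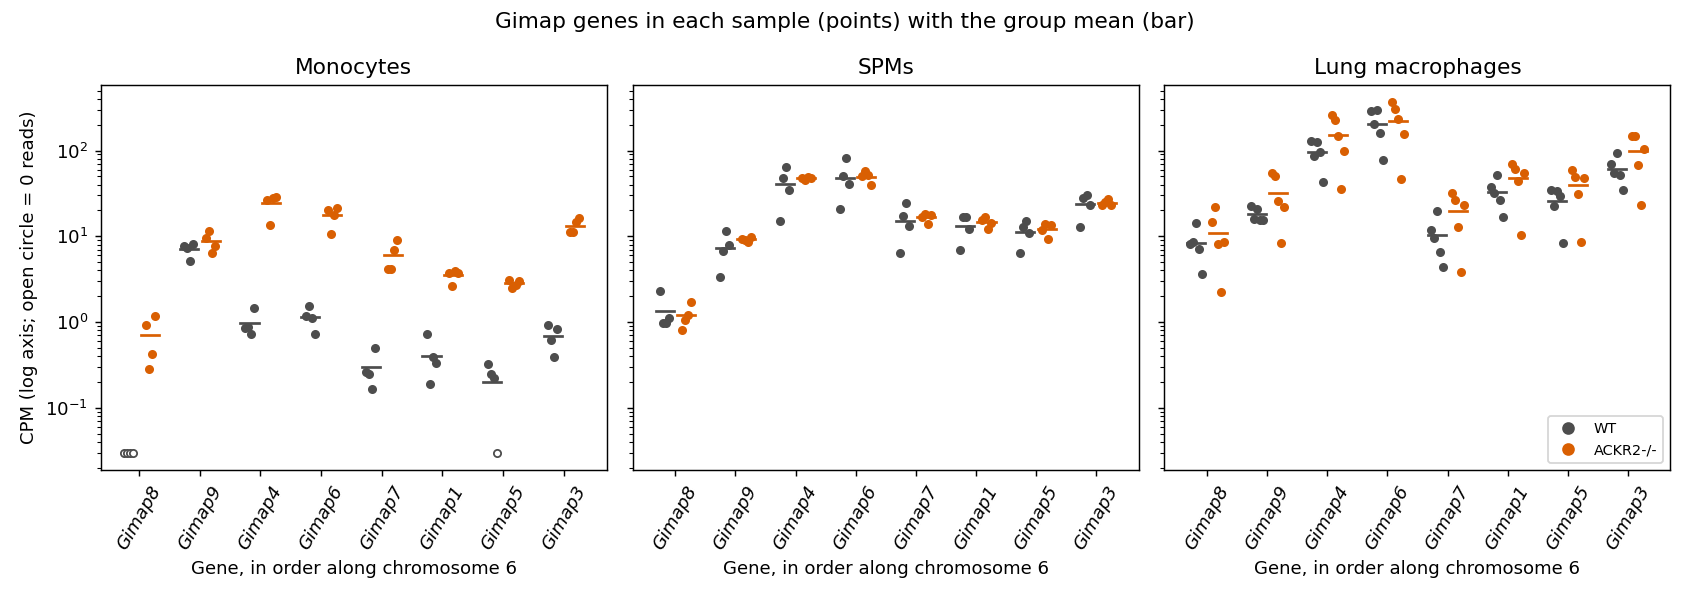
CPM of each Gimap gene (log axis) in each sample of monocytes, SPMs and lung macrophages, with WT in grey and ACKR2-/- in orange, bars at the group means and open circles for samples with 0 reads. In monocytes the genotypes are apart for 7 genes and overlap for Gimap9, and in SPMs and lung they overlap for all 8.

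Gimap4, the member linked to T cell death, had 0.847, 0.871, 0.723 and 1.45 CPM in WT monocytes and 26.8, 13.7, 28.3 and 28.7 CPM in ACKR2-/- monocytes, which gave a log2 fold change of 4.63 ± 0.30 (SE). Each ACKR2-/- sample lay above every WT sample, and ACKR2-/- replicate 2 was the lowest of its group. In reads, the WT values rest on 13 to 26 and the ACKR2-/- values on 240 to 541. Gimap6, the member linked to autophagy, had 1.17, 1.55, 1.11 and 0.727 CPM in WT and 20.1, 10.7, 17.9 and 21.4 CPM in ACKR2-/- samples, which gave a log2 fold change of 3.94 ± 0.28 (SE). It was again lowest in ACKR2-/- replicate 2, and the genotypes did not overlap.

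Gimap3 and Gimap5 have been tied to the Bcl2 family of cell death regulators. Gimap3 had 0.912, 0.622, 0.389 and 0.839 CPM in WT and 11.1, 11.1, 14.6 and 16.2 CPM in ACKR2-/- monocytes, which gave a log2 fold change of 4.26 ± 0.27 (SE). Gimap5 had 0.326, 0.249, 0.223 and 0 CPM in WT and 3.12, 2.5, 2.68 and 3.03 CPM in ACKR2-/- monocytes, which gave a log2 fold change of 3.81 ± 0.50 (SE). Its WT values rest on 13 reads over all 4 samples, and its ACKR2-/- values differed little among themselves.

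Gimap7, whose GTPase activity depends on dimers, had 0.261, 0.249, 0.167 and 0.503 CPM in WT and 4.14, 4.1, 6.89 and 9.03 CPM in ACKR2-/- monocytes, which gave a log2 fold change of 4.32 ± 0.41 (SE). Gimap1, needed for mature lymphocytes to persist, had 0.716, 0.187, 0.389 and 0.336 CPM in WT and 3.77, 2.62, 3.95 and 3.77 CPM in ACKR2-/- monocytes, which gave a log2 fold change of 3.10 ± 0.38 (SE). It was the called member with the smallest fold change, and its reads are those that may also stem from Gimap1os.

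Gimap8, the largest member, had 0 reads in all 4 WT monocyte samples and 17, 5, 8 and 22 reads in ACKR2-/- samples, or 0.914, 0.285, 0.421 and 1.17 CPM. It did not pass the filter. Against the 3 reads that a count of 0 over the WT group allows, it was at least 15.6-fold higher in ACKR2-/- monocytes. Gimap9 had 7.69, 7.21, 5.12 and 8.05 CPM in WT and 9.68, 11.6, 6.31 and 7.75 CPM in ACKR2-/- monocytes, which gave a log2 fold change of 0.33 ± 0.22 (SE). Its genotypes overlapped, and it was the one tested member that was not called. Over the whole family, 7 of 8 members had every ACKR2-/- sample above every WT sample, 6 of them among the 7 tested, where 4.94% of all tested genes had such an order.

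The 2 genotypes also differed in which member held most of the family's reads in monocytes. Gimap9 made up 65.3% ± 1.96 (SD, n = 4) of the summed CPM of the 8 members in WT and 12.2% ± 5.84 in ACKR2-/- samples. Gimap4 made up 9.04% ± 2.23 and 31.1% ± 4.82, and Gimap6 11% ± 3.78 and 22.4% ± 2.65. Per kb of transcript, Gimap9 was at 4.27 ± 0.80 CPM per kb in WT monocytes, above Gimap4 at 0.53 ± 0.18, the next. In ACKR2-/- monocytes Gimap4 was highest at 13.3 ± 3.91 CPM per kb, followed by Gimap9 at 5.38 ± 1.40, Gimap3 at 5.14 ± 0.99 and Gimap6 at 5.01 ± 1.36, and the last 3 did not differ beyond their spread.

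**Figure D2:**
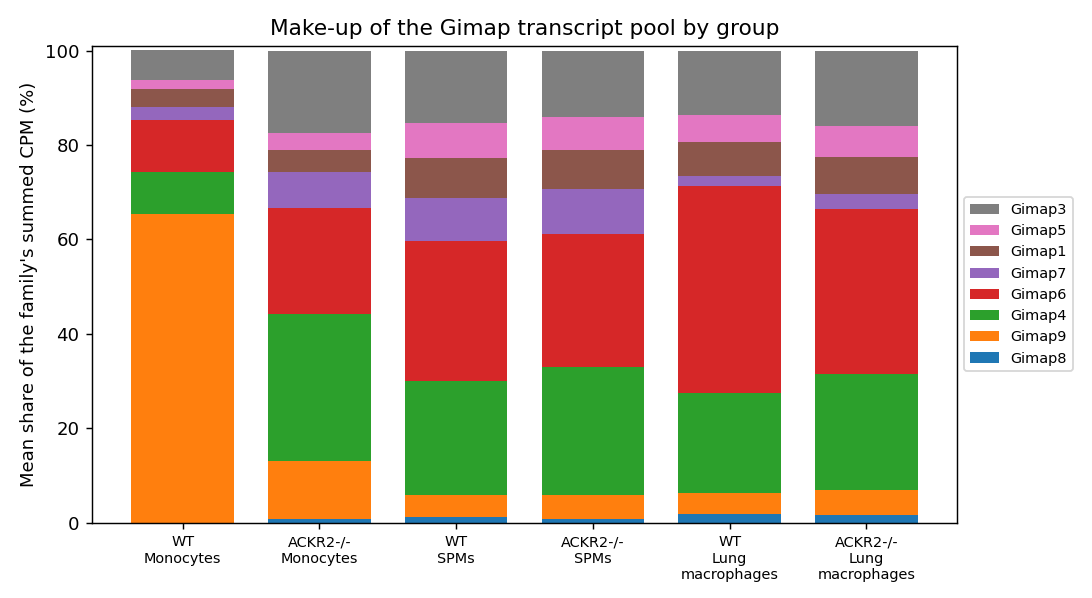
Mean share (%) of each Gimap gene in the summed CPM of the family, by group, with genes stacked in order along chromosome 6. Gimap9 holds 65.3% in WT monocytes and 12.2% or less in the other groups, and Gimap6 holds the most in both lung groups.

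Genes of T cells moved with the family in monocytes. The summed level of 12 T cell genes, among them the CD3 chains and the T cell receptor constant genes, was 5.06 to 6.34 CPM in WT and 76.9 to 134 CPM in ACKR2-/- samples. Of the 12, 11 were tested and 11 were called higher, where 0.913% of all tested genes were, and none had 0 reads over the WT group. Cd3e, Cd247 and Cd5, for example, reached at most 0.187, 0.336 and 0.503 CPM in WT. Genes this low in WT passed the filter through the ACKR2-/- samples, so being tested and being called higher are linked. Cd3d, a chain of the CD3 complex, was at 0.521 to 0.946 CPM in WT and 13.8 to 17.7 in ACKR2-/- monocytes, and Trbc2, a constant gene of the T cell receptor, was at 0.373 to 0.847 and 11.2 to 23.4. The ratio of the summed CPM of the 7 members other than Gimap9 to that of the T cell list was 0.588 to 0.833 in WT and 0.585 to 0.68 in ACKR2-/- monocytes, and these ranges overlapped, although both sums were higher in every ACKR2-/- sample than in any WT sample. Within the ACKR2-/- group, replicate 2 was lowest in both sums, at 45 CPM for the 7 members and 76.9 for the list, and replicate 4 was highest in both, at 83.3 and 134. The part of T cell RNA in the members' values was not tested.

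**Figure D3:**
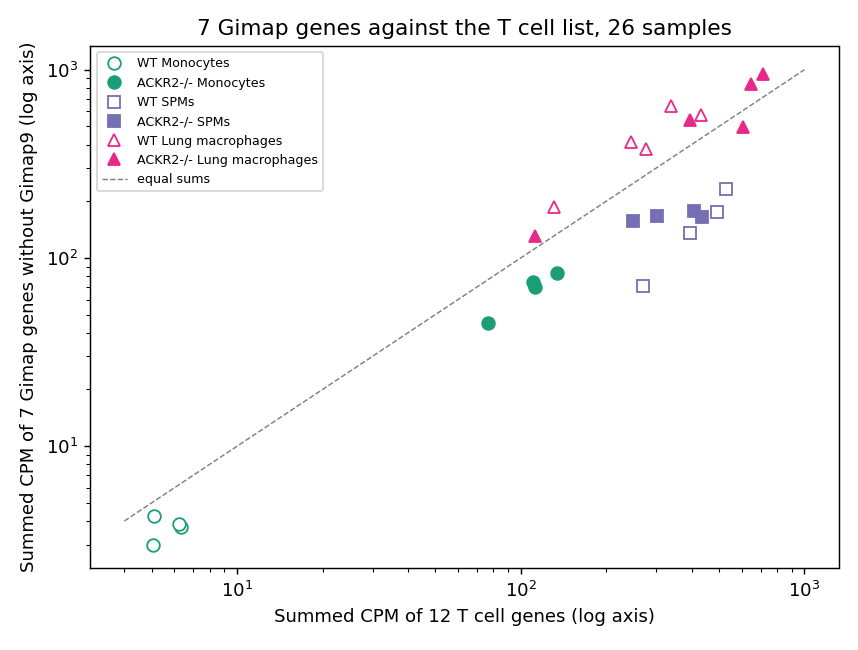
Summed CPM of the 7 Gimap genes other than Gimap9 against the summed CPM of 12 T cell genes (both log axes) in 26 samples, with open symbols for WT, filled symbols for ACKR2-/- and a dashed line where both sums are equal. WT monocytes lie at 3 to 4.23 CPM and ACKR2-/- monocytes at 45 to 83.3 CPM on the vertical axis, monocytes and SPMs lie below the dashed line and 9 of 10 lung samples above it. In SPMs the largest part of the horizontal axis is Cd2.

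Genes of other cell types also differed between the monocyte groups. Of the plasmacytoid dendritic cell genes, 2 of 5 were called higher (Siglech and Cox6a2). Over all tested genes 0.913% were called higher, the share to set beside each count of calls in this paragraph. In 4 of the 5 every ACKR2-/- sample lay above every WT sample, where 4.94% of all tested genes had such an order. The list summed to 12.3 to 17 CPM in WT and 34.9 to 163 CPM in ACKR2-/- monocytes, with the highest value in replicate 1, which was not the highest for the members. The part of plasmacytoid dendritic cell RNA in the members' values was not tested. Of the 10 NK cell genes, 3 were tested and 1 was called higher, the receptor gene Klre1, at 0.0868 ± 0.074 CPM (SD, n = 4) in WT and 2.06 ± 0.57 in ACKR2-/- monocytes, with 4.43 as its log2 fold change beside the median of 4.29 of the T cell genes. Every ACKR2-/- sample lay above every WT sample in 5 of the 10, Klre1, the cytotoxic granule genes Prf1 (means of 0.0155 and 0.551 CPM), Gzma (0.0139 and 0.309) and Gzmb (0 and 0.52) and the transcription factor gene Eomes (0.0303 and 0.898). The last 4 were below the filter, so the share of 4.94% over tested genes does not apply to them. No such share was taken over genes below the filter, and nothing is read from the count of 5. Gzmb, Klra8 and Ncr1 had 0 reads in WT, and the NK cell sum, which is mostly Nkg7, was 634 to 1190 and 399 to 1530 CPM. Of the progenitor genes, 1 of 4 was called higher (Cd34), with sums of 30.2 to 36.3 and 28.7 to 61.7 CPM. The other lists had 0 calls, namely B cell (3 tested), endothelial (3), epithelial (1), monocyte (8), macrophage (7), MHCII (4), neutrophil (7), eosinophil (1) and platelet (3). The B cell sum was 47.9 to 51.7 CPM in WT and 38.9 to 80.9 in ACKR2-/- monocytes. The monocyte sum was 8330 to 9000 CPM in WT and 5030 to 9490 in ACKR2-/- monocytes. The neutrophil sum was larger, at 38800 to 88600 CPM in WT and 16500 to 59100 in ACKR2-/- monocytes, and the macrophage sum was 801 to 1120 and 470 to 1450 CPM. All 7 neutrophil genes and all 7 tested macrophage genes had log2 fold changes below 0, with medians of -0.6 and -0.56.

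The genes beside the cluster were not called in monocytes. Of 43 other genes listed within 300 kb of the cluster, 10 were tested in monocytes and 0 were called, with log2 fold changes from -0.26 to 0.39. Zfp775, a zinc finger gene before the cluster, had 0.36 ± 0.31 (SE), and Tmem176b and Tmem176a, membrane protein genes of myeloid cells, had -0.26 ± 0.24 and -0.15 ± 0.19. In SPMs 11 of these genes were tested and in lung macrophages 17, and 0 were called in either.

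**Figure D4:**
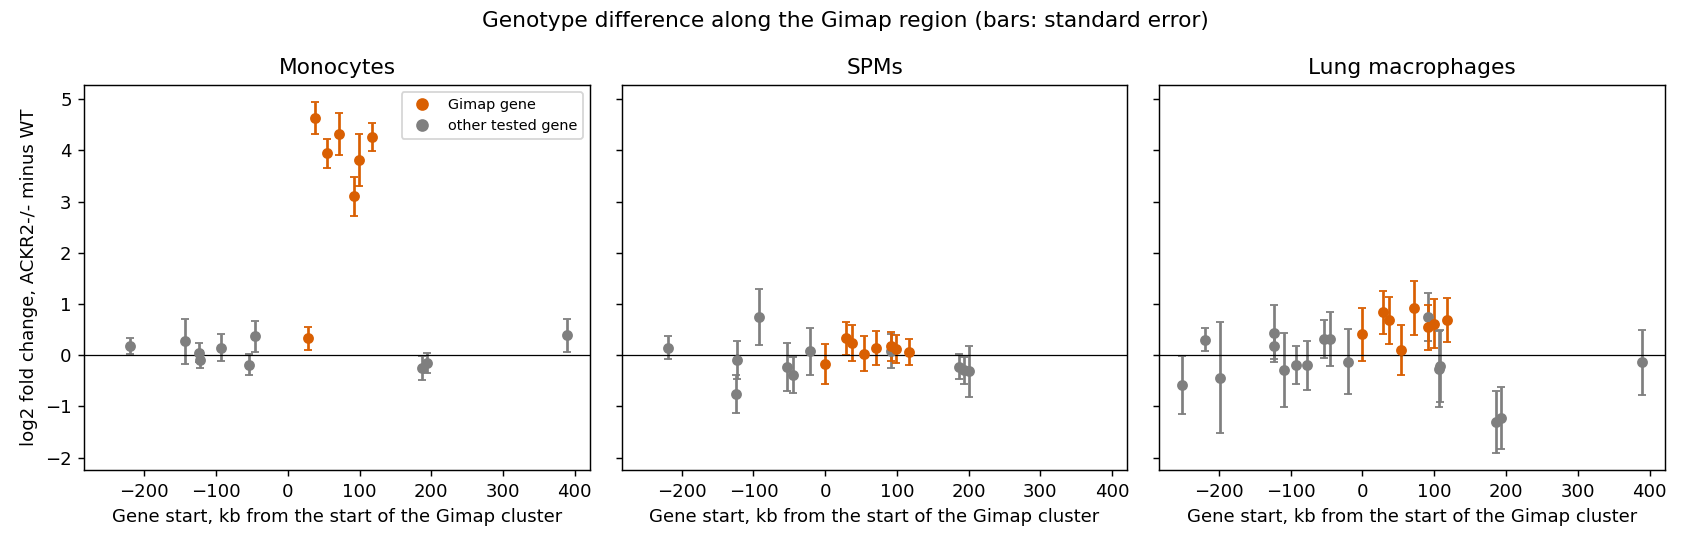
Log2 fold change of ACKR2-/- over WT with its standard error for every tested gene of the region, against the distance of its start (kb) from the start of the Gimap cluster, in monocytes, SPMs and lung macrophages. In monocytes 6 Gimap genes (orange) lie above 3 and Gimap9 lies with the neighbouring genes (grey), between -0.26 and 0.39.

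A list of 28 genes of lymphocyte survival and quiescence, autophagy partners and lymphoid transcription factors was read in the same contrast. In monocytes 28 were tested, and 5 were called higher and 0 lower, where 0.913% of all tested genes were called higher. The 5 were Il7r (the receptor of the T cell survival factor IL-7), at 0.197 ± 0.10 and 2.78 ± 0.98 CPM (SD, n = 4), Ccr7 and S1pr1 (receptors that guide lymphocytes into and out of lymph nodes), and Tcf7 and Lef1 (transcription factors of T cells), with log2 fold changes of 2.11 to 3.79. Il7r, S1pr1, Lef1 and Ccr7 reached at most 0.261, 0.373, 0.334 and 0.586 CPM in WT monocytes. They passed the filter only through the ACKR2-/- samples, so being tested and being called higher are linked, and nothing is read from the count of 5. The autophagy partners were not called, with Gabarapl2 at 112 ± 12.1 CPM in WT and 98.4 ± 24.1 in ACKR2-/- monocytes and Map1lc3b at 358 ± 17.1 and 361 ± 61.6. Of the cell death regulators, Bcl2 was at 5.38 ± 1.54 and 14.1 ± 6.79 CPM and Bcl2l1 at 27.1 ± 3.75 and 19.9 ± 2.06, and neither was called. In SPMs and in lung macrophages 0 of 28 were called.

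In SPMs, a contrast the choice did not use, no member passed the test between genotypes. The 8 log2 fold changes ran from -0.17 to 0.33, with a median of 0.13 beside -0.05 over all genes, and 0 of 8 members were called where 0.0462% of 12997 genes were. At an unadjusted p under 0.05 there were 0 members and 709 genes, and DESeq2 called 0 members and 33 genes. Gimap4 was at 15.1, 48.1, 63.9 and 34.5 CPM in WT and 47.8, 45.3, 49 and 48.1 CPM in ACKR2-/- SPMs, a log2 fold change of 0.24 with a 95% interval of -0.53 to 1.00 (edgeR quasi-likelihood test, adjusted p = 0.887). The ACKR2-/- samples lay within the WT range, and WT replicate 1 was the lowest. Gimap6 was at 21, 50.9, 81 and 41 CPM in WT and 49.9, 57.4, 51.5 and 39.3 CPM in ACKR2-/- SPMs, a log2 fold change of 0.03 with an interval of -0.72 to 0.78.

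WT replicate 1 had the lowest value of all 8 SPM samples in 7 members, and the highest in Gimap8. Gimap8 was at 2.3, 0.981, 0.967 and 1.11 CPM in WT and 0.805, 1.06, 1.21 and 1.7 CPM in ACKR2-/- SPMs. The same library had 270 CPM over the T cell list, the lowest of the WT group (270 to 530), and the ACKR2-/- group spanned 249 to 435. Without it, 6 of the 7 members with a positive log2 fold change turned to negative values, with Gimap9 as the exception at 0.095, Gimap8 turned to 0.23, and 0 members were called. Gimap9 was at 3.31, 6.66, 11.5 and 7.94 CPM in WT and 9.31, 9.06, 8.53 and 9.94 in ACKR2-/- SPMs, a log2 fold change of 0.33 with an interval of -0.38 to 1.05.

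Gimap1, Gimap3, Gimap5 and Gimap7 showed the same overlap in SPMs. Their group means were 13.1 ± 4.61 and 14.7 ± 1.97 CPM for Gimap1, 23.7 ± 7.87 and 24.6 ± 2 for Gimap3, 11.3 ± 3.61 and 12.2 ± 2.07 for Gimap5 and 15.2 ± 7.45 and 16.6 ± 1.96 for Gimap7 (WT and ACKR2-/-, SD, n = 4). The spread of the 8 members summed was 74.2 to 244 CPM in WT and 167 to 187 in ACKR2-/- samples. The 95% intervals of the 8 members lay between -1.02 and 1.05 on the log2 scale in SPMs. All 13 marker lists also had 0 calls in SPMs, where all 9 NK cell genes tested had log2 fold changes above 0.

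In lung macrophages, the other contrast that did not enter the choice, 0 of 8 members and 0 of 16824 genes were called (0%) with edgeR. At an unadjusted p under 0.05 there were 0 members and 499 genes, and DESeq2 called 0 members and 20 genes. All 8 log2 fold changes were above 0, from 0.10 to 0.92 with a median of 0.64, beside a median of -0.04 over all genes, of which 44.8% were above 0. Gimap7 was at 11.8, 9.61, 19.6, 6.62 and 4.33 CPM in WT and 31.8, 26.3, 13, 3.86 and 23.3 CPM in ACKR2-/- samples, which gave a log2 fold change of 0.92 with a 95% interval of -0.23 to 2.07 (edgeR quasi-likelihood test, adjusted p = 1). ACKR2-/- replicates 1, 2 and 5 lay above every WT sample and replicate 4 lay below every one. Gimap9 was at 22.4, 16, 21, 15.6 and 15.4 CPM in WT and 54.4, 50.8, 25.7, 8.37 and 21.8 CPM in ACKR2-/- samples, which gave a log2 fold change of 0.83 with an interval of -0.071 to 1.74 (edgeR quasi-likelihood test, adjusted p = 1).

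Gimap6 was the member with the smallest difference in the lung. It was at 288, 202, 300, 161 and 76.7 CPM in WT and 364, 304, 231, 47.2 and 157 CPM in ACKR2-/- samples, which gave a log2 fold change of 0.10 with an interval of -0.96 to 1.17. Gimap4 was at 128, 86.2, 127, 96.8 and 42.5 CPM in WT and 260, 228, 146, 35.6 and 99.5 CPM in ACKR2-/- samples, which gave a log2 fold change of 0.68 with an interval of -0.34 to 1.70. The groups overlapped in both genes, with ACKR2-/- replicates 1 and 2 high and replicate 4 low. Gimap1, Gimap3, Gimap5 and Gimap8 had log2 fold changes of 0.54, 0.68, 0.61 and 0.41, with standard errors of 0.43 to 0.52.

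**Figure D5:**
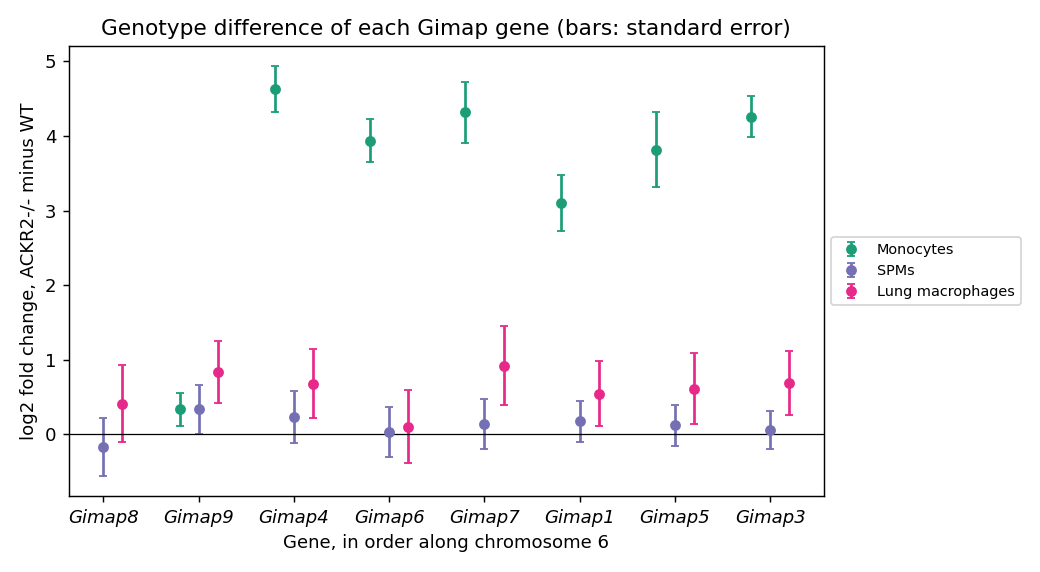
Log2 fold change of ACKR2-/- over WT for each Gimap gene, in order along chromosome 6, in monocytes, SPMs and lung macrophages, with bars for the standard error and no point for Gimap8 in monocytes, which was not tested. The monocyte values lie between 3.10 and 4.63 apart from Gimap9 at 0.33, and the SPM and lung values lie between -0.17 and 0.92.

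Within the lung groups the members rose and fell together between libraries, and so did some of the lists of other cells. The 8 members summed to 202 to 660 CPM in WT and 139 to 1000 CPM in ACKR2-/- samples. The library labelled WT replicate 5, with 202 CPM, and ACKR2-/- replicate 4, with 139 CPM, were the lowest of their groups. Both were also lowest of their groups in the T cell list (131 and 112 CPM, against 245 to 715 in the other 8 libraries), in the endothelial list (160 and 165 against 499 to 1520) and in the epithelial list (262 and 205 against 3830 to 12700). They were not low in the macrophage list (5310 CPM, with 3780 to 14500 over WT, and 5180, the highest of ACKR2-/-) or in the monocyte list (2990 and 3070 CPM). In the NK cell list ACKR2-/- replicate 4 was the lowest of its group (530 CPM), whereas the library labelled WT replicate 5 was not (529 CPM). ACKR2-/- replicates 1 and 2 were the highest of their group in the members (1000 and 887 CPM), in the T cell list (715 and 646) and in the NK cell list (2920 and 3300, against 259 to 662 over WT). All 10 NK cell genes and all 12 T cell genes had log2 fold changes above 0 in the lung and all 7 B cell genes below 0 (median -0.72), with 0 of them called, and all 13 lists had 0 calls. The part of these cells in the members' values was not tested. Without the library labelled WT replicate 5 the 8 log2 fold changes were -0.099 for Gimap6 and 0.23 to 0.79 for the others, and without both low libraries they were 0.16 to 1.03, with 0 members called either way.

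The genotype effect was compared between SPMs and lung macrophages in a single fit of all samples. The difference (SPM effect minus lung effect) ran from -0.75 for Gimap7 to -0.03 for Gimap6 over the 8 members, with a median of -0.46 beside 0.04 over all genes. At an adjusted p under 0.05, 0 of 8 members passed, where 0.0393% of 17792 genes did, and 0 members had an unadjusted p under 0.05 in edgeR, against 1095 genes. DESeq2 called 0 members and 23 genes. For Gimap7 the 95% interval of the difference was -2.06 to 0.55 (adjusted p = 0.884 in edgeR). Without the library labelled WT lung replicate 5 the difference was 0.172 for Gimap6 and -0.564 to -0.166 for the others, with 0 members called. The effect in monocytes was not set against the others by a test, because it chose the members. Side by side, the median log2 fold change of the tested members was 3.94 in monocytes, 0.13 in SPMs and 0.64 in lung macrophages.

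The WT samples were also compared between cell types. The low WT monocyte values are part of what chose the members, so the comparisons with monocytes are a description, with no p-value. The family sum was 8.12 to 11.9 CPM in WT monocytes, 74.2 to 244 in WT SPMs and 202 to 660 in WT lung macrophages. The sum of the T cell list was 5.06 to 6.34, 270 to 530 and 131 to 432 CPM in the same samples, with Cd2 as its largest part in SPMs. The part of T cell RNA in these differences was not tested. Each cell type is a table of its own, so cell type, table and sort cannot be told apart, and these fits used the identifiers that all 3 tables share. The sums above are CPM set within each table and are not on a common scale, whereas the fits were scaled over the 3 tables together. All 8 members were lower in WT monocytes than in WT SPMs (8 of 8 called, where 21.2% of 16328 genes were called lower). They were also lower than in WT lung macrophages (8 of 8, also without the library labelled WT lung replicate 5, where 36.9% were). Gimap1, Gimap3, Gimap5, Gimap7 and Gimap8 had as few as 3, 7, 0, 3 and 0 reads in a WT monocyte sample. They could not have passed the filter on their monocyte reads alone. For them being tested and being lower in monocytes are linked, so nothing is read from the count of 8. The median log2 difference of the members was -6.56 against SPMs and -6.54 against lung, beside 0 and -0.25 over all genes. With Gimap8 at its bound, which rests on CPM set within each table, the medians were -6.4 and -6.54. For Gimap4 the differences were -6.54 ± 0.54 and -6.62 ± 0.54 (SE), all differences being monocytes minus the macrophage. For Gimap6 they were -6.58 ± 0.57 against SPMs and -7.50 ± 0.58 against lung, and for Gimap7 -6.82 ± 0.64 and -5.11 ± 0.60, so that Gimap7 had the larger gap against SPMs and Gimap6 against lung. Gimap8 had 0 reads in WT monocytes. Its bounds used the same limit of 3 reads over the group and CPM set within each table. On those CPM it was at least 30-fold higher in WT SPMs and at least 186-fold higher in WT lung macrophages. These bounds are not on the common scale of the fits, so they need not hold as minima there.

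Gimap9 was the member that differed least between WT monocytes and either macrophage. It was at 5.12 to 8.05 CPM in WT monocytes, 3.31 to 11.5 in WT SPMs and 15.4 to 22.4 in WT lung macrophages, where CPM are set within each table. Its log2 difference was -1.24 ± 0.35 between monocytes and SPMs and -1.37 ± 0.33 between monocytes and lung. The first of these changed with the scaling between tables. The mean TMM factor was 1.25 in monocytes, 0.567 in SPMs and 1.34 in lung, and with no scaling factor the difference between monocytes and SPMs was -0.019 for Gimap9 and -5.76 to -4.94 for the 6 other members with reads in WT monocytes. Without scaling the median of all genes in that comparison moved from 0 to 1.02, and the share of calls that were higher in monocytes from 48.4% to 84%.

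Between WT SPMs and WT lung macrophages 2 of 8 members were called, where 60.8% of all genes were. Gimap7 was higher in SPMs, by 1.71 ± 0.45 on the log2 scale (adjusted p = 0.00388 in edgeR), and Gimap8 lower, by -1.48 ± 0.46 (adjusted p = 0.0138). Gimap6 had -0.92 ± 0.42 (adjusted p = 0.0687 in edgeR), which passed the threshold without WT SPM replicate 3 or without WT lung replicate 5 (adjusted p = 0.026 and 0.0142, over a range of 0.000153 to 0.161), and the other 5 lay between -0.19 and -0.03. Relative to the median of all genes, -0.36, these 5 lay slightly above it. With no scaling factor the median of all genes was -1.57, 12.5% of calls were higher in SPMs instead of 37.7%, and the members were at -2.61 to -1.32 with Gimap7 at 0.43, where its call was lost (adjusted p = 0.353 in edgeR, over a range of 0.000354 to 0.353 for its alternatives). Without the library labelled WT lung replicate 5, Gimap7 was at 1.51 and Gimap8 at -1.68 and both were called. The ratio of Gimap7 to Gimap6 within a sample does not depend on the scaling. It was 0.299 to 0.337 in WT and 0.269 to 0.446 in ACKR2-/- SPMs, and 0.0411 to 0.0654 in WT and 0.0565 to 0.148 in ACKR2-/- lung macrophages, so that no SPM sample overlapped a lung sample.

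Per kb of transcript, Gimap4 and Gimap6 were the highest members in both macrophages and Gimap8 the lowest. In WT SPMs Gimap4 was highest at 22 ± 11.3 CPM per kb (SD, n = 4), followed by Gimap6 at 13.9 ± 7.15, Gimap3 at 9.18 ± 3.05, Gimap7 at 6.54 ± 3.21, Gimap9 at 4.48 ± 2.07, Gimap1 at 4.26 ± 1.5, Gimap5 at 2.71 ± 0.87 and Gimap8 at 0.36 ± 0.17. Each step in this order apart from the last was within the spread between samples, which includes shifts shared by all members of a library. Within each WT SPM sample the order was the same, apart from Gimap9 and Gimap1, which changed places between samples. In WT lung macrophages Gimap6 at 58.7 ± 26.4 and Gimap4 at 52.4 ± 19.2 (SD, n = 5) did not differ beyond their spread, followed by Gimap3 at 23.6 ± 8.56, Gimap9 at 11 ± 2.05, Gimap1 at 10.7 ± 4.24, Gimap5 at 6.22 ± 2.61, Gimap7 at 4.47 ± 2.53 and Gimap8 at 2.24 ± 1.03. Without the library labelled WT replicate 5, Gimap6 was at 67.9 ± 19.2 and Gimap4 at 59.7 ± 11.6 CPM per kb (SD, n = 4), and Gimap6 made up 45.2% ± 3.12 of the family. Gimap6 made up 29.5% ± 2.49 of the family in WT SPMs and 43.8% ± 4.23 in WT lung macrophages, and in ACKR2-/- samples 28.1% ± 3.20 and 35.1% ± 3.74. In the SPMs of either genotype the 7 members other than Gimap9 were at 0.263 to 0.631 times the T cell list, and in the lung at 0.814 to 1.89 times. The largest part of that list in SPMs was Cd2, with means of 275 CPM in WT and 211 CPM in ACKR2-/- samples, and the ratio without Cd2 was not taken.

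The genes whose level followed the family most closely were named over each set of samples. By Pearson's r of log2(CPM + 1) with the summed family, they were over all 26 samples Ppp3cc (0.966), Trbc1 (0.963), Skap1 (0.962), Lck (0.96), Lat (0.956), Klrd1 (0.954), Il7r (0.95), Ltb (0.948), Ccl5 (0.947) and Ifitm10 (0.945), of which Trbc1, Lck and Lat are in the T cell list. These points share 3 cell types and tables, and the value is a description. They also include the monocyte contrast that chose the members, in which Trbc1, Lck, Lat and Il7r were called higher. Over the 13 WT samples the closest were Rhoc (0.989), Avpi1 (0.988) and Pmp22 (0.987), with Lck (0.984), the 1 gene of the T cell list among the first 10, sixth. Without the library labelled WT lung replicate 5, the first 3 were Lat (0.973), Ppp3cc (0.969) and Trbc1 (0.964) over all 25 samples, which include that monocyte contrast. Over the 12 WT samples they were Arf4 (0.993), Katna1 (0.992) and Bcl2a1a (0.99). Over the 10 lung samples they were Tgif2 (0.975), Mlf1 (0.974) and Ier5l (0.97), with Gimap1os (0.957) and Il7r (0.955) among the first 10 and 0 of the 10 in the T cell list, and without the library labelled WT replicate 5 Cobll1 (0.98) came first, before Tgif2 (0.973). Over the 8 SPM samples they were Tyw5 (0.991), Pdrg1 (0.989) and Rnf113a2 (0.988), and none of the first 10 was in the T cell list.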

How the data were processed

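RNA of sorted cells was amplified by the SMARTer method after poly-A selection and sequenced as paired-end reads. The values that the authors deposited are raw read counts for each gene, not normalized, 1 table per cell type. Per the submitters' processing notes, HISAT2 2.0.5, featureCounts 1.5.0-p3, DESeq2 (no version given) and mm10 were used, and the lung table has 5 summary lines of a kind that another counter writes (56.3% of its counts), which were left out. PCR copies were not marked, so limits from counts cover counting error only. P-values measure the spread between samples, which were pools in monocytes and SPMs, whereas for lung samples no pooling was found in the sources.

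In R 4.3.3, genes were filtered with filterByExpr (minimum count 10, minimum total 15), scaled by TMM and compared with the quasi-likelihood test of edgeR 4.0.16, Benjamini-Hochberg adjusted over all tested genes. Each cell type had its own genotype fit. WT samples were compared between cell types, and the genotype effects of SPMs and lung in a fit of 26 samples, over 50104 shared identifiers. Per-sample columns not matched to a sample numbered 0. All 44 pairs of replicates differed beyond sampling noise. Same-numbered WT and ACKR2-/- samples had deviations correlated by -0.12 to 0.31 in monocytes, -0.092 to 0.025 in SPMs and -0.078 to 0.64 in lung, so the numbers were not treated as pairs. The fits were tested on simulated data.

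The members and lists were chosen with earlier results of these data known. The genes named are the 8 members, the tested genes within 300 kb of the cluster, the 10 genes most like the summed family by r (pseudocount 1 CPM) and Ackr2. Also named are the called or defining genes of the list of 28 genes described above and of 13 marker lists (T cell, NK cell, B cell, endothelial, epithelial, monocyte, macrophage, MHCII, neutrophil, eosinophil, platelet and megakaryocyte, progenitor, plasmacytoid dendritic cell). 1 gene of the B cell list is not reported here and was left out of its sums and counts. Also tried were RLE factors, DESeq2 1.42.0, a filter at 1 CPM, no filter, a robust fit, adjusted p alone, the replicate number as a block, and each sample left out. No scaling factor and both low lung libraries left out, and levels, shares and likeness without WT lung replicate 5, were added after seeing the data.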

Additional observations from a re-analysis of the deposited data

Results flagged for a closer look

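Of the 48 groups of member and sample values examined, 3 had a sample far from the rest of its group, where chance gives about 1 in 20. In ACKR2-/- monocytes, replicate 2 was low for Gimap1, at 2.62 CPM against 3.77 to 3.95 in the other 3 samples, and for Gimap4, at 13.7 CPM against 26.8 to 28.7. In WT SPMs, replicate 1 was high for Gimap8, at 2.3 CPM against 0.967 to 1.11.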

How the results depend on the processing

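The numbers of members called (6, 0 and 0 of the genotype contrasts in monocytes, SPMs and lung, and 0 whose effect differed between SPMs and lung) were the same with DESeq2, RLE factors, a filter at 1 CPM, a robust fit and each sample left out, and with no filter 7 were called in monocytes. Calls over all genes moved more, from 168 to 494 with DESeq2 and 346 with no filter in monocytes, from 6 to 33 and 52 in SPMs, from 0 to 20 with DESeq2 in lung and from 7 to 23 for the difference of effects. With the replicate block, as the samples share only a number, 6, 0 and 0 members were called, Gimap6 turned to -0.009 in lung and its difference of effects to 0.238, and no call changed.

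Between WT SPMs and lung, 2 members were called, 2 to 3 with a sample left out and 7 with no scaling factor, an alternative chosen after seeing the data. Gimap4, Gimap5 and Gimap9 turned to 0.065, 0.105 and 0.007 with DESeq2 and to 0.064, 0.103 and 0.008 with RLE factors. With a sample left out they ranged from -0.37 to 0.214, -0.255 to 0.192 and -0.4 to 0.142, Gimap1 from -0.329 to 0.085 and Gimap3 from -0.344 to 0.043. Gimap6 passed the threshold without WT SPM replicate 3 (adjusted p = 0.026 in edgeR), without WT lung replicate 5 (0.0142) and with no filter (0.0486), over a range of 0.000153 to 0.161.

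With a sample left out, the genotype values in SPMs ranged from -0.035 to 0.313 for Gimap1, -0.149 to 0.202 for Gimap3, -0.034 to 0.547 for Gimap4, -0.069 to 0.285 for Gimap5, -0.215 to 0.398 for Gimap6, -0.117 to 0.447 for Gimap7 and -0.385 to 0.23 for Gimap8, most turning without WT replicate 1. Gimap6 ranged from -0.152 to 0.363 in lung and its difference of effects from -0.302 to 0.324. The cause was not tested. Low counts limit Gimap5 and Gimap8 in WT monocytes, and the spread between libraries limits the lung, where intervals reach 2.07 on the log2 scale.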
